A study of Homo sapiens with 4 samples.

Results

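The 10 genes described here act in the NRF2 antioxidant response, in iron handling and in ferroptosis. They were chosen by name as NFE2L2, KEAP1, FTH1, FTL, TFRC, GPX4, TXNRD1, NQO1, GCLM and ACSL4, and their peaks were found by matching the gene symbol in the annotation of both deposited peak lists. Of the 10 genes, 9 had at least 1 peak and FTH1 had none, while 12227 protein-coding genes of the whole experiment had a peak in either list. The members accounted for 44 of the 48104 peaks of the lactate list and for 77 of the 95785 peaks of the ddH2O list, which merged into 92 of the 116484 merged peaks.

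In RIP-seq an antibody captures a protein together with its RNA, which is then sequenced. The protein was NSUN2, a methyltransferase that places m5C on tRNA and mRNA. The cells were wild-type PANC-1, an established line from a human pancreatic ductal adenocarcinoma, and they received either sodium lactate at 30 mM or ddH2O, the vehicle, for 24 h. Each condition had 1 immunoprecipitation (IP) library and 1 input library, the input being lysate RNA taken ahead of the pull-down, so 4 libraries in all and no replicate error for any value. A difference below is therefore a difference between 2 libraries, called by its size alone, and intervals cover counting error only. Both groups are the same line with the same genotype, and no IP with a control antibody was used here, so RNA that sticks to beads and RNA bound by NSUN2 cannot be told apart.

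NRF2, the protein of NFE2L2, is a transcription factor that KEAP1 normally holds for degradation by a CUL3 ubiquitin ligase. When electrophiles or oxidants modify KEAP1, NRF2 accumulates, pairs with small MAF proteins on antioxidant response elements and raises enzymes such as NQO1, a quinone reductase, GCLM, the modifier subunit of the enzyme that starts glutathione synthesis, and TXNRD1, the cytosolic thioredoxin reductase. TFRC is the transferrin receptor that brings iron into the cell, and FTH1 and FTL are the heavy and light chains of ferritin, which stores it. Ferroptosis is a death by iron-dependent lipid peroxidation, in which ACSL4 loads polyunsaturated fatty acids into membrane lipids and GPX4, a selenoprotein, reduces the lipid hydroperoxides with glutathione.

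Some short stretches of the members' start regions show where known elements and called peaks lay. They were read from RefSeq start regions on GRCh38.p14, which hold 250 bases before and 50 bases after each annotated start, and 9 of the 10 members had an entry there. In the first, from FTL, capitals mark a match to CAGTGN, the loop of the iron responsive element that the iron regulatory proteins bind. In the TFRC and NFE2L2 stretches the capitals are the first 15 transcribed bases, and in those of GCLM and TXNRD1 they mark a match to the antioxidant response element core.
FTL, chr19:48965329-48965358, plus strand: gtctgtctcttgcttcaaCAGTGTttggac
TFRC, chr3:196082076-196082105, minus strand: ggccgccatcccctcAGAGCGTCGGGATAT
NFE2L2, chr2:177264713-177264742, minus strand: cgccggcgtgtagccGATTACCGAGTGCCG
GCLM, chr1:93909445-93909474, minus strand: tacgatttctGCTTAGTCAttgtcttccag
TXNRD1, chr12:104215761-104215790, plus strand: gcgtccttcgGCTCCGTCAgttcccacagg

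The FTL loop began at transcribed base 39, and a match to CAGTGN in the first 50 transcribed bases stood in 6.36% of the 35116 start regions of all genes, on the transcribed strand. No peak of either list lay over it, as the FTL peak began 1263 bases further along the gene. The antioxidant response element core was searched as TGACNNNGC on both strands, whose first 4 letters also open the cyclic AMP response element. It matched in 4 of the members' 14 start regions, which belong to GCLM, TXNRD1 and KEAP1, and in 13.3% of all start regions, and a match is only a match of letters. The TFRC stretch carries the start site on which a lactate peak ended, and the NFE2L2 stretch lay under a ddH2O peak that reached 34 bases upstream of the start.

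In the lactate list 7 of the 10 members had a peak, where 47.1% of the 20056 protein-coding RefSeq genes had one. The ddH2O list held peaks of 9 members, against 58.4% of those genes. NFE2L2 had 15 peaks with lactate and 27 with ddH2O, TXNRD1 12 and 20, and ACSL4 9 and 13, so these 3 genes held most of the members' peaks. KEAP1 had 4 and 7 peaks, TFRC 1 and 4, GPX4 2 and 2, and NQO1 1 and 1. FTL and GCLM had none with lactate and 1 and 2 with ddH2O. FTH1 was without a peak in both lists, and no peak of another gene touched its RefSeq span either.

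**Figure D1:**
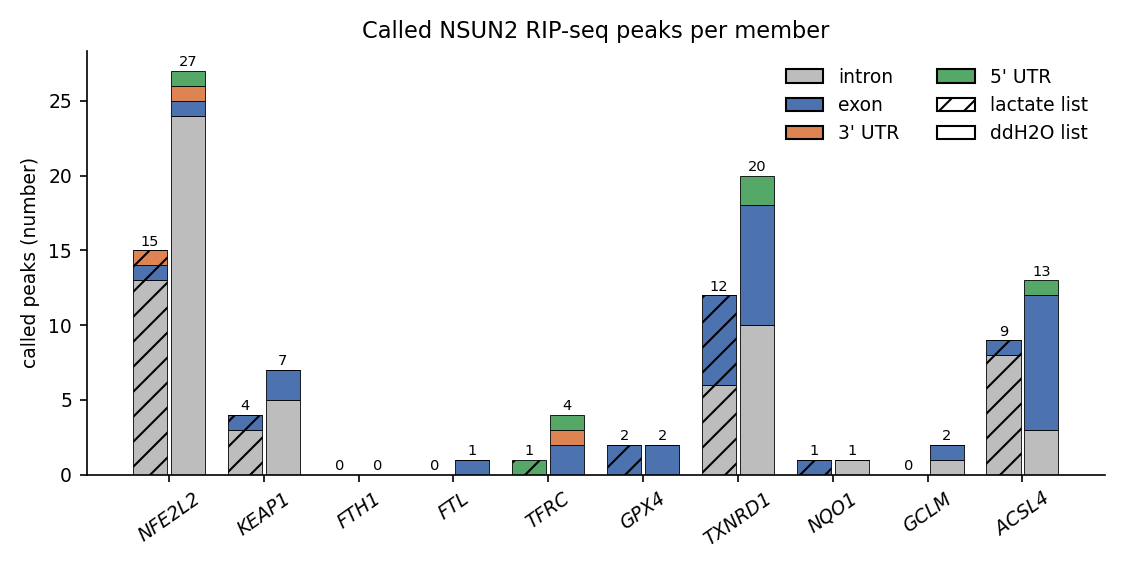
Number of called peaks (vertical axis) of each of the 10 members, with the lactate list hatched on the left of each pair and the ddH2O list plain on the right, coloured by transcript region. NFE2L2 stands highest with 15 and 27 peaks, nearly all in introns, and FTH1 has none in either list.

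The share of member peaks in introns was near that of the lists, few lay in a 3′ UTR, and with ddH2O the shares in exons and 5′ UTRs were above those of the list. The list shares also count intergenic peaks, of which the members had none. The intervals treat peaks as independent, although several belong to 1 gene. Introns held 30 of 44 member peaks with lactate (68.2%, 95% Wilson interval 53.4 to 80.0%), against 57.7% of all peaks of that list. With ddH2O they held 44 of 77 (57.1%, 46.0 to 67.6%), against 56.1%. Many of these belong to NFE2L2 but lie upstream of its RefSeq span, and without the upstream peaks introns held 20 of 34 member peaks with lactate (58.8%) and 26 of 58 with ddH2O (44.8%), a set-aside made after seeing the data. Exons took 27.3% of the members' lactate peaks (16.3 to 41.8%), against 19.8% of all, and 33.8% of their ddH2O peaks (24.2 to 44.9%), against 21.8%. Of the 26 exon peaks with ddH2O, TXNRD1 held 8 and ACSL4 9. A 5′ UTR held 1 lactate peak (2.27%, 0.402 to 11.8%, against 1.35% of all) and 5 ddH2O peaks (6.49%, 2.81 to 14.3%, against 1.63%). Among these 5, only the NFE2L2 peak, upstream of its RefSeq span, and a TXNRD1 peak at chr12:104325186-104325536 had a q-value below 0.05. A 3′ UTR held 1 lactate peak (2.27%, 0.402 to 11.8%) and 2 ddH2O peaks (2.60%, 0.715 to 8.98%), where all peaks had 15.4% and 12.9% there. These 3 peaks belong to NFE2L2 in both lists and to TFRC with ddH2O. For ACSL4, 8 of 9 lactate peaks were called in introns, where the list had 57.7%. With ddH2O, 9 of its 13 peaks were called in exons, where the list had 21.8%. Of its 20 merged peaks, 2 were called in both lists. Only 3 of the 9 lactate peaks and 8 of the 13 ddH2O peaks were below a q-value of 0.05. Whether this difference lies in the RNA or in the peak calls was not tested.

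Each called peak carries a deposited fold of IP over input and a q-value. A q-value below 0.05 was reached by 20 member peaks with lactate (45.5%, against 42.7% of the list) and by 46 with ddH2O (59.7%, against 48.6%). A fold of at least 4 was reached by 16 (36.4%, against 35.3%) and by 33 (42.9%, against 32.4%). With lactate the members stood close to the list, and their median fold of 3.24 equalled its median of 3.24. With ddH2O the members' median was 3.64 and that of the list 3.03. The fold moves in steps at low depth: the 4 most common values made up 41.4% of the lactate list and 44.9% of the ddH2O list, and 16 and 25 member peaks had one of them.

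**Figure D2:**
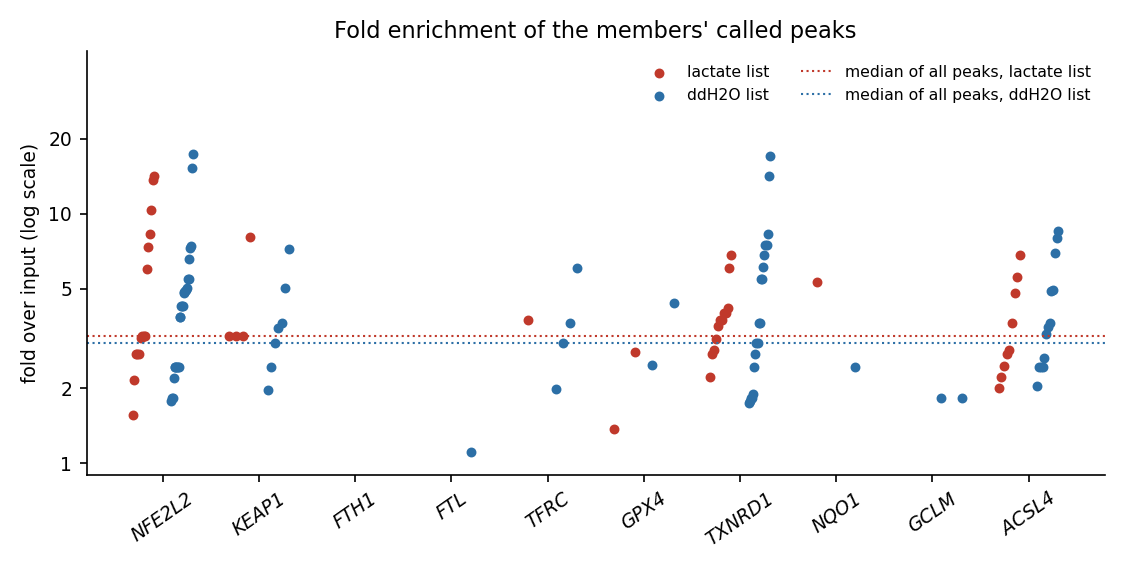
Fold of IP over input (log scale) of every called peak of the 10 members, lactate list in red and ddH2O list in blue, with dotted lines at the median of all peaks of each list (3.24 and 3.03). The ddH2O peaks of NFE2L2 and TXNRD1 reach 17.3 and 17.0, and the FTL peak lies at 1.11.

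To compare the IP libraries, the authors used MAnorm, which takes the read density over 2000 bases centred on each merged peak and rescales the densities along a line. The deposited densities were turned back into reads. Leaving out the MT-RNR2 and MALAT1 windows, the library sums were 1945000 reads with lactate and 3536821 with ddH2O, and the median over member windows was 7 reads and 9 reads. The log2 ratios below are lactate over ddH2O on the rescaled densities, positive where lactate was higher, and a second value scaled by those library sums stands beside them where it matters, as the rescaling added 0.09 to 1.37 to the log2 ratio of member windows with at least 20 reads. No input reads enter these ratios, so the amount of a transcript in the lysate and its share in the IP cannot be told apart, and in a bulk lysate neither can fewer cells and less RNA per cell. Among 18 markers of cell types, KRT18 and KRT8, keratins listed here as ductal, had the most reads (2737 and 1592 with lactate, 8085 and 4024 with ddH2O). KRT19 had 92 reads with lactate and 248 with ddH2O, KRT7 16 and 37, and EPCAM, with a ddH2O peak alone, 1 and 3. A peak was found for 5 of 6 ductal markers, while the 3 acinar, 2 islet and 2 Schwann cell markers had none. COL1A1, a fibroblast collagen, had 1 lactate peak with 47 and 50 reads, and PTPRC, a leukocyte phosphatase, 1 ddH2O peak with 0 and 3 reads. SOX9 was the ductal marker without a peak.

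Of the 92 member windows, 28 were called in both lists, where 22.6% of all merged peaks were. A further 15 were called with lactate alone (18.0% of all) and 49 with ddH2O alone (59.4% of all). At least 20 reads over both IPs were found in 43 (46.7%, against 32.6% of all windows). A window with that many reads was called higher or lower past a 2-fold ratio. By this rule 7 member windows were higher with lactate (16.3%, against 7.65% of 37925 windows) and 2 were lower (4.65%, against 18.6%). The higher windows are few and share reads, since 4 of them are neighbours at 1 site, and 51 of the 92 member windows (55.4%) overlapped another window.

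All 7 higher windows lay in introns. Member introns had 25 windows with at least 20 reads, of which 7 were higher, against 13.0% of such intron windows over all genes, and 1 was lower, against 17.4%. Their median log2 ratio was 0.39, and that of all intron windows was -0.04. Without the upstream NFE2L2 windows, a set-aside made after seeing the data, 3 of 18 member intron windows were higher (16.7%), as were 3 of all 36 member windows (8.33%), which is near the 7.65% of all windows. In exons and UTRs, 18 member windows had enough reads, 0 were higher, against 2.69% of all, and 1 was lower, against 19.6%. There the median was -0.33 for the members and -0.31 for all genes. Scaled by library sums, 10 member windows were higher, against 17.0% of all windows, and 2 were lower, against 8.77%.

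**Figure D3:**
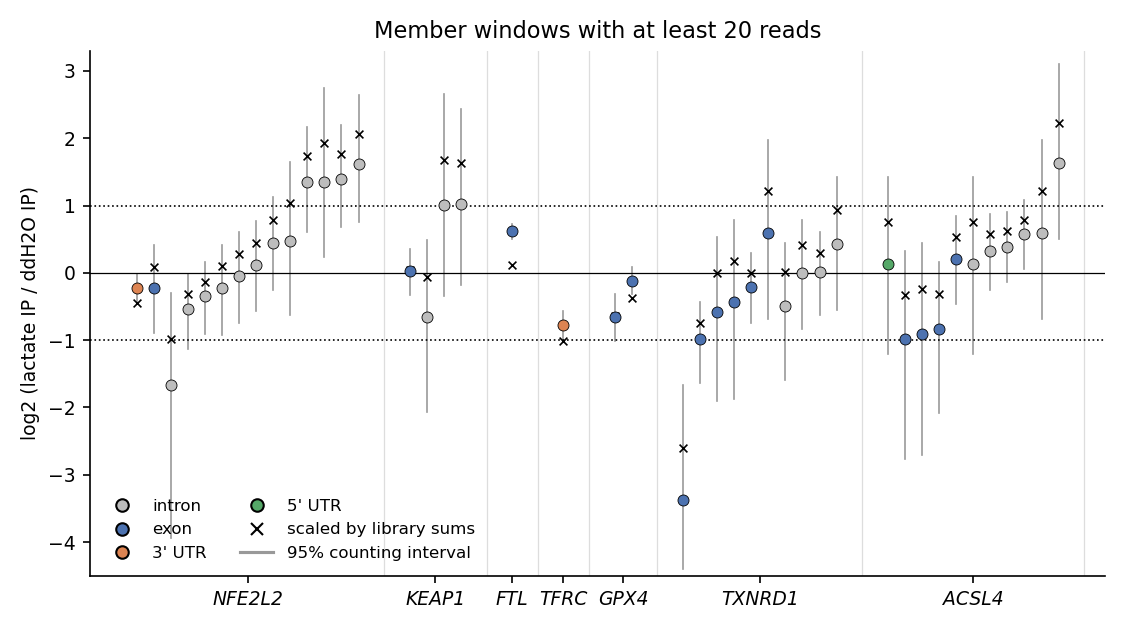
Log2 ratio of lactate IP over ddH2O IP (vertical axis) of the 43 member windows with at least 20 reads, grouped by gene and coloured by region, with the 95% counting interval as a grey line (the lowest TXNRD1 interval runs on to -9.67) and a cross for the ratio scaled by library sums. Dotted lines mark a 2-fold ratio; all 7 windows above the upper line are introns of NFE2L2, KEAP1 and ACSL4.

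Among the regulators, NFE2L2 had the most windows, 31, of which 14 held at least 20 reads. Its densest window lay in the 3′ UTR at chr2:177230990-177231488, 687 bases from the RefSeq end of the gene, with 244 reads with lactate (95% Poisson interval 214 to 277) and 606 with ddH2O (559 to 656). The densities were 178 and 209 reads per kb, a log2 ratio of -0.23 (-0.46 to -0.02), and the library sums gave -0.45. The peak stood only 1.56-fold over input with lactate and 5.02-fold with ddH2O. The window with the most NFE2L2 reads thus carried the lowest fold among its lactate peaks.

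The peaks of NFE2L2 with the highest fold were both intronic. With lactate the highest was 14.1-fold at chr2:177372840-177373440, a place upstream of the RefSeq gene where ddH2O reached 15.2-fold and the window held 36 and 38 reads. With ddH2O the highest was 17.3-fold at chr2:177246507-177247320, inside the gene, where lactate reached 8.26-fold and the window held 46 and 93 reads. Neither window passed a 2-fold ratio, with log2 ratios of 0.44 and -0.35.

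Much of what the deposited annotation calls NFE2L2 lies outside the RefSeq gene. RefSeq places NFE2L2 at chr2:177230303-177264727 on the minus strand. In the lists, 10 of 15 lactate peaks and 19 of 27 ddH2O peaks of NFE2L2 lay upstream of that span, on long annotated transcripts. Of its 31 merged peaks, 9 were on the RefSeq span, 21 overlapped LOC100130691, a long non-coding RNA of RefSeq at chr2:177283508-177392691, and 1 was on neither. The library kit does not mark strand, so reads from transcripts of these loci cannot be told apart.

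The 4 NFE2L2 windows that were higher with lactate formed a single site in that upstream stretch, within chr2:177367881-177369924 and 103 to 105 kb from the RefSeq start. They held 43, 46, 36 and 20 reads with lactate against 23, 24, 15 and 9 with ddH2O, so lactate had more reads in each. The log2 ratios were 1.35, 1.40, 1.61 and 1.35, and 1.74, 1.77, 2.07 and 1.93 by library sums. Over all windows, MT-RNR2 and MALAT1 included, the sums were 9756087 reads with lactate and 9553809 with ddH2O, and scaled by these the ratios were 0.84, 0.88, 1.18 and 1.04, so the first and second fell inside the 2-fold line. Each lower bound of the counting intervals was above 0, from 0.23 to 0.76. All 6 pairs of these windows overlap and their summits fall within 1699 bases, so they are 1 region counted 4 times. The neighbouring windows at chr2:177370508-177372716 and chr2:177372840-177373440 had log2 ratios of -0.54 and 0.44.

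On the RefSeq span of NFE2L2, 7 windows had at least 20 reads and none was higher. One intron window, chr2:177241318-177241901, was lower with 4 reads with lactate and 17 with ddH2O, a log2 ratio of -1.67 (-3.94 to -0.30), and -0.99 by library sums. The exon window at chr2:177234175-177234429 had 33 and 57 reads and a log2 ratio of -0.22. The other windows with enough reads lay between -0.35 and 0.12.

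**Figure D4:**
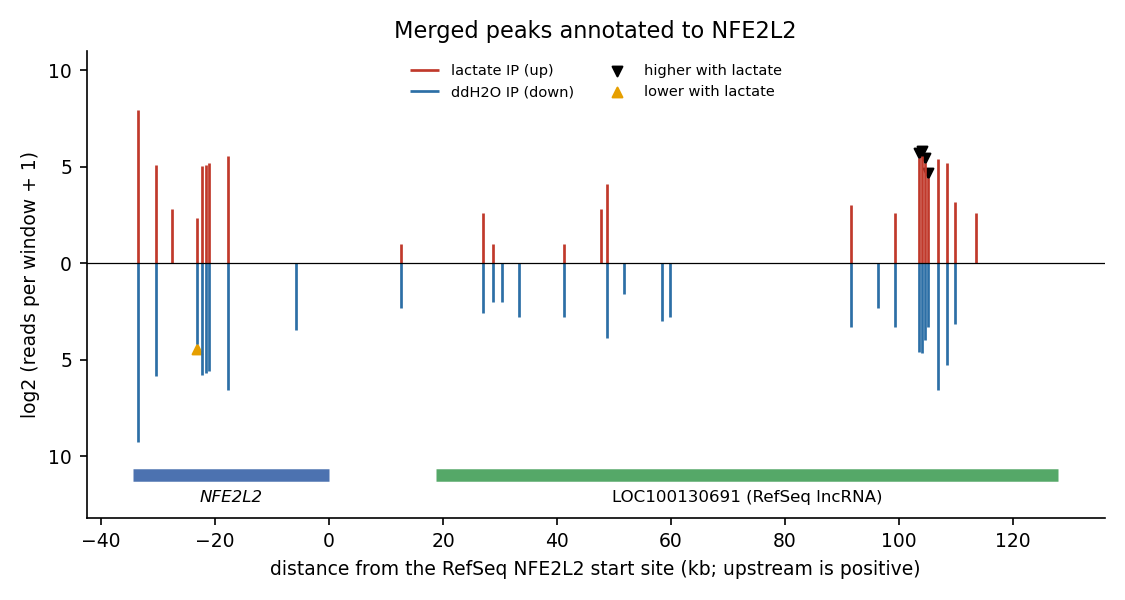
Reads per window, as log2 of reads plus 1, of the 31 merged peaks annotated to NFE2L2 against the distance in kb from its RefSeq start site, lactate upward in red and ddH2O downward in blue, with the RefSeq spans of NFE2L2 and LOC100130691 as bars. The 4 windows marked higher crowd together 103 to 105 kb upstream, and the densest window is at the far end of the gene on the left.

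Peaks annotated to other genes also lay on the NFE2L2 span. MIR3128, a microRNA gene inside it, had a peak of 6.86-fold with lactate and 9.90-fold with ddH2O, with 18 and 29 reads and a log2 ratio of -0.26. An unnamed antisense gene, ENSG00000222043, had an exon peak of 8.39-fold with lactate and 3.70-fold with ddH2O. Its merged peak, chr2:177264360-177264761, covers the NFE2L2 start site printed above. The window held 2 reads with lactate and 13 with ddH2O, too few for a call, although the lactate fold was the higher one.

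KEAP1, the repressor, had 8 windows, 4 of them with at least 20 reads. The densest lay in the last exon region at chr19:10486067-10486819, over the RefSeq end of the gene, with 111 reads with lactate (91.3 to 134) and 197 with ddH2O (170 to 227). Its log2 ratio was 0.02 (-0.33 to 0.36), 0.04 by library sums and -0.85 by the sums over all windows. This was also the most enriched KEAP1 peak in both lists, at 8.09-fold and 7.19-fold. A pair of intron windows was called higher, at chr19:10494474-10494673 with 16 and 9 reads (log2 ratio 1.02, -0.18 to 2.44) and at chr19:10499180-10499379 with 13 and 7 reads (1.01, -0.34 to 2.66). Both intervals include 0 and both ratios sit at the 2-fold line, whereas library sums gave 1.63 and 1.67. An exon peak of 5.05-fold at chr19:10489013-10489446 was called with ddH2O alone, where the window held 0 and 12 reads.

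TXNRD1 had 21 windows, 10 with at least 20 reads, and its exons held 6 lactate and 8 ddH2O peaks. The densest window, the exon at chr12:104318740-104319172, had 50 reads with lactate (37.1 to 65.9) and 92 with ddH2O (74.2 to 113). The log2 ratio was -0.21 (-0.75 to 0.29) and 0.00 by library sums. Fold over input there was 6.06 with lactate and 14.2 with ddH2O. Its highest lactate fold, 6.86, was in the exon at chr12:104311162-104311585, where ddH2O had 6.83 and the window held 7 and 8 reads.

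Of the TXNRD1 windows, 1 was lower and 0 were higher, while by library sums 1 was higher too. The exon at chr12:104321012-104321488 held 1 read with lactate and 21 with ddH2O, a log2 ratio of -3.37 (-9.67 to -1.67), or -2.60 by library sums. Its ddH2O peak was the most enriched of the gene, at 17.0-fold. Lactate had a peak there too, at 3.76-fold with a q-value of 0.13, 1 of the 4 most common folds of its list. Another exon, chr12:104315620-104316068, had 32 and 99 reads and a log2 ratio of -0.99 (-1.64 to -0.43), just inside the 2-fold line. The intron site at chr12:104343039-104344285, had 39 and 58 reads and a ratio of 0.01. Both TXNRD1 start regions lacked a peak.

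NQO1 and GCLM, targets of NRF2, had few reads in their windows, and reads elsewhere on these genes were not counted. NQO1 had an exon peak with lactate alone, 5.31-fold, in a window of 5 and 1 reads, and an intron peak with ddH2O alone, 2.43-fold, in a window of 3 and 3 reads. GCLM had an exon and an intron peak with ddH2O alone, both 1.82-fold, in windows of 4 and 4 and of 0 and 2 reads. No ratio can be read at this depth, as the interval for the GCLM exon ran from -2.41 to 2.44.

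The ferritin light chain FTL had the most reads of any member, although only 1 of its peaks was called. The exon window at chr19:48966616-48966832, 47 bases from the RefSeq end of the gene, held 996 reads with lactate (935 to 1060) and 1682 with ddH2O (1600 to 1760), above 99.9% of all windows. The densities were 802 and 523 reads per kb and the log2 ratio was 0.62 (0.50 to 0.73), the highest of the members' exon and UTR windows with at least 20 reads. Library sums gave 0.11 (-0.01 to 0.22) and the sums over all windows -0.79, so the size and sign of this ratio depended on the scaling. The rescaling added 1.37 here, more than at any other of these member windows. The peak was called with ddH2O alone and stood 1.11-fold over input, the lowest fold of all members.

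FTH1, the heavy chain, had no peak and so no window and no ratio. A gene without a called peak is not shown to be unbound, since a list holds only enriched places. Processed pseudogenes copy both ferritin mRNAs, and reads of gene and copy may be split between them. Of these, FTH1P23 had a lactate peak of 2.46-fold with 11 and 4 reads. FTH1P16 had a ddH2O peak of 1.69-fold with 49 and 73 reads, and FTLP3 one of 3.71-fold with 24 and 41 reads. FTLP2 and FTLP10 had ddH2O peaks with 3 and 5 and with 0 and 0 reads. Where the pseudogenes' reads came from was not tested.

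TFRC, the iron importer, had the member window with the second most ddH2O reads, and it leaned to ddH2O. The 3′ UTR window at chr3:196049311-196049653, 27 bases from the RefSeq end, held 216 reads with lactate (188 to 247) and 796 with ddH2O (742 to 853). The log2 ratio was -0.78 (-1.01 to -0.57), inside the 2-fold line, and -1.01 (-1.24 to -0.80) by library sums, past it. The peak was called with ddH2O alone at 1.99-fold. Exon peaks of 6.07-fold and 3.64-fold and a 5′ UTR peak of 3.02-fold were also called with ddH2O alone, in windows of 0 and 9, 2 and 5, and 2 and 5 reads.

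With lactate alone, TFRC had a 5′ UTR peak of 3.76-fold at chr3:196081867-196082090, ending on the start site printed above. Its window held 0 reads in both IPs, although the peak had been called there. Such cases were uncommon: among merged peaks of the lactate list, 828 (1.75%) had 0 lactate reads, and 2 of 43 member windows did, the other being the TXNRD1 intron at chr12:104228319-104228518. In the ddH2O list 2319 (2.43%) had 0 ddH2O reads, and 1 of 77 member windows did. A count of 0 allows up to 3.69 reads by the Poisson interval, and what separated the peak call from the window count was not tested.

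GPX4, the lipid hydroperoxide reductase, had 2 exon windows, both called in both lists. The densest, chr19:1106262-1106861, over the RefSeq end of the gene, held 309 reads with lactate (276 to 345) and 733 with ddH2O (681 to 788). The log2 ratio was -0.12 (-0.31 to 0.08), and -0.38 by library sums. Fold over input was 1.37 with lactate and 4.38 with ddH2O. The second window, chr19:1105243-1105930, had 91 and 260 reads and a log2 ratio of -0.65 (-1.02 to -0.31), with folds of 2.78 and 2.47. Neither was called, and the 2 windows overlap, so they share reads.

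ACSL4, the fatty acid ligase, had 20 windows and 11 with at least 20 reads, and all 6 intron windows among these had log2 ratios above 0 while 3 of its 4 exon windows were below. The intron windows at chrX:109688334-109688533 (49 and 60 reads), chrX:109688787-109689404 and chrX:109689690-109689997 (58 and 69 reads) overlap and share reads. The first and last of these were called with lactate alone, although their log2 ratios were only 0.32 and 0.39. In the other windows called with lactate alone, lactate had more reads, from 4 and 0 to 22 and 8. Only those at chrX:109688787-109689404 and chrX:109710719-109711364 had intervals above 0. The share of all intron windows above 0 was not counted. The densest window, an intron at chrX:109688787-109689404, had 65 reads with lactate (50.2 to 82.8) and 69 with ddH2O (53.7 to 87.3). The log2 ratio was 0.57 (0.06 to 1.08), 0.78 by library sums and -0.12 by the sums over all windows. The intron window at chrX:109710719-109711364, called with lactate alone, was higher with 22 and 8 reads, a log2 ratio of 1.63 (0.51 to 3.11), or 2.22 by library sums, and it was the gene's most enriched lactate peak at 6.86-fold. Its most enriched ddH2O peak, 8.49-fold in the exon at chrX:109677999-109678559, had 6 and 15 reads and a log2 ratio of -0.99 (-2.77 to 0.33). The exons at chrX:109663187-109663590 and chrX:109665271-109665653 had -0.84 and -0.91, each with an interval that includes 0. The exon nearest the gene's end, chrX:109643939-109644144, had 37 and 47 reads and a log2 ratio of 0.20.

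**Figure D5:**
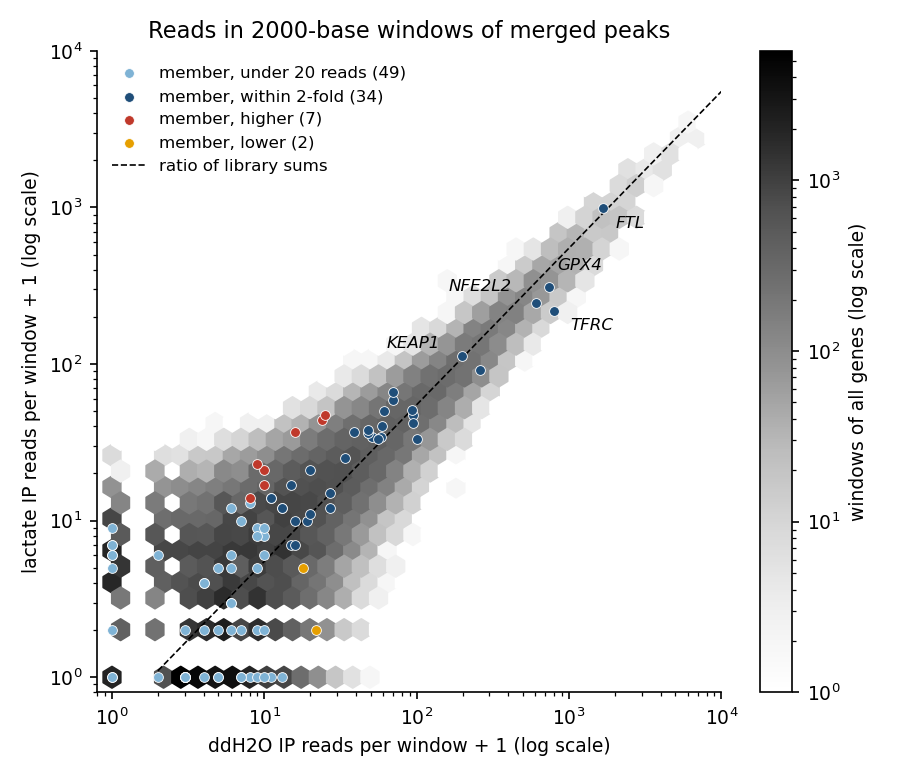
Reads plus 1 per window in the lactate IP against the ddH2O IP (both axes log scale, the MT-RNR2 and MALAT1 windows lying beyond them), with all windows as grey hexagons and the 92 member windows as points coloured by their call on the rescaled densities; the dashed line is the ratio of the library sums. The densest windows of FTL, GPX4, NFE2L2 and TFRC lie at the upper right and were not called, although TFRC stood at -1.01 on the log2 scale against the dashed line, while the 7 higher windows have few reads.

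For 5 of the 9 members with a window, namely NFE2L2, KEAP1, FTL, TFRC and GPX4, the densest window lay within 687 bases of the RefSeq end of the gene. The share of all genes with such a window was not counted. FTL and GPX4 span only 1.57 and 2.79 kb, beside windows of 2000 bases. In TXNRD1, NQO1, GCLM and ACSL4 the densest window lay 13210 to 47452 bases from the RefSeq end, those of NQO1 and GCLM holding only 6 and 8 reads. For NQO1 the intron window of 3 and 3 reads was taken, and the exon window of 5 and 1 reads, nearer the end, tied with it. Of the 9 densest windows, the 7 with at least 20 reads had log2 ratios from -0.78 for TFRC to 0.62 for FTL on the rescaled densities, none of them past 2-fold. By library sums they ran from -1.01 for TFRC to 0.78 for ACSL4. Scaled by the sums over all windows, NFE2L2 (-1.34), TFRC (-1.91) and GPX4 (-1.27) were past 2-fold lower.

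Genes of the same pathways were counted in 5 lists, which include the members, by the same 2-fold rule and against the same 7.65% higher and 18.6% lower of all windows with at least 20 reads. A merged peak counts a peak of either list, and 47.1% of protein-coding RefSeq genes had a lactate peak and 58.4% a ddH2O peak. The split depended on the scaling: library sums gave more higher and fewer lower windows in each list, as they did over all genes (17.0% higher and 8.77% lower, with the median log2 ratio at 0.13 in place of -0.20). Of 11 NRF2 regulators, all had a merged peak, and 9 of 49 windows were higher (18.4%) and 7 lower (14.3%), with a median log2 ratio of 0.12 against -0.20 over all genes. By library sums 13 were higher (26.5%) and 3 lower (6.12%). Of the 9 higher windows, 4 are the single upstream NFE2L2 site, and without the upstream NFE2L2 windows 5 of 42 were higher (11.9%) and 7 lower (16.7%). CUL3, the scaffold of the ligase that KEAP1 joins, had 3 higher intron windows, a pair of which overlap, the one with the most reads having 34 and 20 (log2 ratio 1.17, 0.36 to 2.07), and 2 lower windows, an exon of 11 and 33 reads having the more. SQSTM1, the autophagy receptor that binds KEAP1, had the densest window of the list, a 3′ UTR with 584 and 1328 reads and a log2 ratio of 0.09, and a lower exon window of 5 and 34 reads (-2.27, -4.20 to -1.13). MAFG, a small MAF partner of NRF2, had 207 and 274 reads in its 3′ UTR and a log2 ratio of 0.56. BTRC, a ubiquitin ligase adaptor for NRF2, had a lower 3′ UTR window with 30 and 98 reads (-1.07, -1.75 to -0.50). BTRC and CUL3 each had a lower intron window too, with 2 and 25 reads (-2.96, -6.61 to -1.48) and with 5 and 21 reads (-1.65, -3.61 to -0.40). By library sums the SQSTM1 exon and these BTRC (-2.25) and CUL3 (-1.01) introns were still past 2-fold lower, and the BTRC 3′ UTR (-0.81) and the CUL3 exon (-0.64) were not.

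Of 27 NRF2 target enzymes, 20 had a merged peak, and 10 of 54 windows were higher and 10 lower (18.5% each), with a median of -0.04. Windows that overlap one another being taken as 1 site, these were 6 higher and 8 lower sites. The even split did not hold by library sums, which gave 17 higher (31.5%), 3 lower (5.56%) and a median of 0.20, the 3 lower ones belonging to GCLC, TKT and TXNRD1. GCLC, the catalytic partner of GCLM, had a lower 3′ UTR window with 8 and 47 reads (log2 ratio -2.05, -3.48 to -1.09) and 2 overlapping intron windows at 1 site that were called higher, of 14 and 7 and of 13 and 7 reads, with intervals that include 0. UGDH, which makes UDP-glucuronate, had 2 overlapping higher intron windows, the one with more reads having 18 and 9 (1.19, 0.04 to 2.60). ABCC3, an efflux pump, had 4 higher intron windows, the one with the most reads having 24 and 14 (1.09, 0.12 to 2.19), and ME1, malic enzyme, had 4 lower ones that form 2 overlapping pairs and lay between -0.80 and -0.97 by library sums, inside the 2-fold line. GSTM3, a glutathione transferase, had a lower 3′ UTR window of 14 and 41 reads (-1.07, -2.13 to -0.23). TKT, PGD and SRXN1 had the most reads of the list. TKT, a pentose phosphate enzyme, had 456 and 713 with a log2 ratio of 0.53 in one exon window and 7 and 33 (-1.78, -3.35 to -0.73) in a lower one. SRXN1, sulfiredoxin, had 273 and 571 with 0.02, and PGD, another pentose phosphate enzyme, 90 and 273 with -0.73. TXN, PRDX1, AKR1B10, AKR1C1, AKR1C2, AKR1C3 and ABCC2 had no peak.

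Of 26 iron genes, 20 had a merged peak, and 6 of 38 windows were higher (15.8%) and 3 lower (7.89%), with a median of 0.16. By library sums 13 were higher (34.2%) and 1 lower (2.63%, TFRC), with a median of 0.28. The 6 higher windows, at 4 sites, belong to SLC25A37, a mitochondrial iron importer, SLC39A14, a metal importer, and FBXL5, an iron-sensing ligase subunit. An SLC25A37 exon window had 86 and 54 reads (log2 ratio 1.32, 0.82 to 1.85), the most reads of these. ACO1, an iron regulatory protein, had a lower 3′ UTR window with 17 and 62 reads (-1.32, -2.25 to -0.59), SLC11A2, another metal importer, a lower one of 9 and 28 reads (-1.22, -2.59 to -0.20), and PCBP2, an iron chaperone, a lower exon window of 7 and 19. The densest PCBP2 window, a 3′ UTR of 177 and 315 reads, came after FTL and TFRC in reads and had a log2 ratio of 0.13. No peak was listed for SLC40A1, HEPH, PCBP1, ISCU or FTMT.

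Of 22 ferroptosis genes, 19 had a merged peak, and 3 of 57 windows were higher (5.26%) and 5 lower (8.77%), with a median of -0.11. By library sums 8 of the 57 were higher and 0 lower, with a median of 0.13, equal to that of all genes. SLC7A11, the cystine importer, had 70 and 121 reads in its 3′ UTR and a log2 ratio of -0.05, and a lower intron window of 5 and 16 reads (-1.31, -3.29 to 0.03). Apart from ACSL4, the higher windows were single introns of ACSL3, another fatty acid ligase, with 20 and 7 reads (1.64, 0.47 to 3.25), and of VKORC1L1, a vitamin K reductase, with 34 and 21 reads (1.11, 0.30 to 1.99). Each of these also had a lower window, of 6 and 16 reads in an ACSL3 exon and of 9 and 27 in a VKORC1L1 intron, and GSS, glutathione synthetase, had 2 lower exon windows of at most 5 and 20 reads. The most reads of the list stood in PEBP1, a lipoxygenase partner, with 523 and 1245 in the 3′ UTR (log2 ratio 0.01), then in GPX4 and in VDAC2, a mitochondrial channel, with 132 and 365 (-0.52). ALOX12, ALOX15 and VDAC3 had no peak.

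Of 23 selenoprotein genes, 20 had a merged peak, and 1 of 46 windows was higher (2.17%, a SELENOF intron of 15 and 7 reads) and 4 lower (8.70%), with a median of -0.45. By library sums 2 were higher and 2 lower (4.35% each), with a median of -0.08. PSTK, the kinase on the way to selenocysteine tRNA, had 2 of the lower windows, one with 29 and 125 reads (-1.44, -2.11 to -0.89). SELENOO had a lower intron window of 7 and 25 reads, and the TXNRD1 exon above was the fourth. GPX1, a relative of GPX4, had 330 and 630 reads and a log2 ratio of 0.19, and SEPHS2, selenophosphate synthetase, 89 and 261 with -0.69. GPX2, SELENOP and SELENOH had no peak.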

How the data were processed

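RNA bound by NSUN2 and input RNA were sequenced in PANC-1 cells, 1 library of each per condition. Per the labels, the submitters' processing notes name fastp 0.20.1, HISAT2 2.1.0, MACS2 2.2.7.1, bedtools 2.29.2, HOMER 4.11.1 and DiffBind on GRCh38. The authors called peaks per IP library against its input, and the deposited lists hold the ratio of IP to input (fold), with p-value and q-value, per peak, together with the gene and region. The authors merged the lists with MAnorm, and the deposited table holds a normalised signal (read density) per IP library. It also holds their own log2 ratio, mean density and p-value, which were not used.

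Gene and region of a merged peak were those of the called peaks it overlapped by at least 1 base. The log2 ratio was taken from both densities, and a window of 2000 bases was called past 2-fold with at least 20 reads over both IPs. Reads were computed back on the basis that a density is reads plus 1 per kb, with a line of slope -0.17 and intercept 0.20, and came out whole within 0.05 reads for 99.998% of 116484 windows. On simulated windows 100.000% gave back their reads, and of 200 raised 4-fold 99.0% were called, against 1.46% of unchanged ones. The raised windows were drawn from those averaging at least 20 reads per IP, with equal libraries and no rescaling. These rates therefore do not describe calls at 20 reads over both IPs on the rescaled densities. Intervals are Poisson (reads) and Clopper-Pearson (ratios, from the reads alone) at 95%. With 1 library per group no test was made. Input depth is unknown.

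The members and the pathway lists were chosen with earlier results of these data known. The text names every member, its window with the most reads, its called windows and its most enriched peak in each list, and of each pathway list the genes with the most reads and up to 3 called in each direction. ME1, SLC7A11 and list genes without a peak were named in addition, after their values were seen. Of the target enzymes, 1 gene that the rule names is counted but not reported here. Alternatives changed the read minimum, the fold, the scaling, the overlap and the q-value. Sequences and gene spans come from RefSeq (GRCh38.p14). Scripts ran on Python 3.11.15 (matplotlib 3.10.9, scipy 1.17.1, pandas 2.3.3, numpy 2.4.6).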

Additional observations from a re-analysis of the deposited data

How the results depend on the processing

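No paired analysis was possible because only 1 IP library per condition exists and nothing was tested. Of the member windows, 7 were higher and 2 lower with lactate. Without a read minimum 15 were higher and 26 lower, and with at least 50 reads 3 and 0. A fold over 4 left 0 and 1, and a fold over 1.5 gave 10 and 9. Shares of all windows at these other settings are not given, so these counts cannot be set against the series. Leaving out the NFE2L2 windows upstream of its RefSeq span, an alternative added after seeing the data, left 3 higher and 2 lower. Windows whose counting interval also excluded no change were 5 and 2. Of the 44 lactate peaks of the members, 20 had a q-value below 0.05 and 16 a fold of at least 4, and of the 77 ddH2O peaks 46 and 33. These cuts left 6 and 5 of 7 members with lactate and 7 and 6 of 9 with ddH2O. Scaling by library sums moved the densest-window ratio beyond its counting interval for 3 of 9 members, FTL, TFRC and GPX4. The sums over all windows, which MT-RNR2 and MALAT1 dominate, made all 9 negative, with NQO1 taken at its window of 3 and 3 reads. Higher and lower windows of the pathway lists moved from 9 and 7 to 13 and 3 (NRF2 regulators), from 10 and 10 to 17 and 3 (target enzymes), from 6 and 3 to 13 and 1 (iron), from 3 and 5 to 8 and 0 (ferroptosis) and from 1 and 4 to 2 and 2 (selenoproteins) by library sums, and to 5 and 7 for the regulators without the upstream NFE2L2 windows. These list counts were also added after seeing the data. The cause of these shifts was not tested. Windows with under 20 reads, 49 of the 92, were too shallow for a call, and with 1 library per condition the spread between cultures is unknown.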
